A study of Mus musculus with 4 samples.

Results

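Nuclei of parvalbumin (Pvalb) interneurons were examined in single-nucleus RNA sequencing of cortex together with hippocampus, taken from mice aged 5 weeks. A nucleus was taken as a Pvalb nucleus by its UMIs (unique molecular identifiers, each standing for 1 captured RNA molecule). The rule asked for at least 3 UMIs of Gad1 and Gad2 together, at most 1 of Slc17a7, fewer than 5 of Sst and fewer than 3 of Vip. It also asked for at least 1 UMI of 3 or more of the 6 genes Pvalb, Eya4, Btbd11, Tac1, Cox6a2 and Tmem132c. This gave 606 of the 36094 nuclei kept for having over 600 genes and a mitochondrial share of UMIs below 5%. The 4 libraries each came from 1 mouse, and by the labels and the study's methods all 4 mice carried floxed Sel1L alleles on a C57BL/6J background. In 2 libraries the label is Sel1L flox/flox, the control genotype. The other 2 are labelled Sel1L Syn-Cre, floxed mice crossed with a Synapsin I-Cre line, whose promoter works in postmitotic neurons and which, by the study's own account, removes SEL1L from a subset of neurons. Values by library are given below in the order Sel1L flox/flox replicate 1, Sel1L flox/flox replicate 2, Sel1L Syn-Cre replicate 1 and Sel1L Syn-Cre replicate 2. The libraries held 198, 139, 119 and 150 Pvalb nuclei with 2951254, 1814318, 1597750 and 2018909 UMIs in all, and their median nucleus had 13392, 11475, 12264 and 12601 UMIs.

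Pvalb interneurons are the fast-spiking GABAergic cells of cortex and hippocampus. They inhibit their targets near the soma and axon initial segment, fire at high rates through Kv3 potassium channels, and are often wrapped in a perineuronal net. SEL1L is the adaptor of the ubiquitin ligase HRD1 in endoplasmic reticulum (ER)-associated degradation (ERAD), which draws misfolded proteins out of the ER for destruction by the proteasome. When misfolded proteins build up, the sensors IRE1α, ATF6 and PERK start the unfolded protein response (UPR): XBP1 and ATF6 raise chaperones and ERAD factors, and PERK, through ATF4, raises amino acid transport and synthesis.

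The label was checked against genes that the rule did not use. Kcnc2, which encodes a Kv3 channel subunit, had 3585, 3284, 2686 and 2532 CPM (the usual CPM of UMI counts, scaled by edgeR's TMM factors) in Pvalb nuclei, and 327, 278, 266 and 272 CPM in the other kept nuclei. Erbb4, a neuregulin receptor of interneurons, had 11211, 10555, 8146 and 8680.5 CPM, against 948, 734, 576 and 542 CPM elsewhere. Both genes were higher in the Pvalb nuclei of every library than in all other kept nuclei together. They do not set Pvalb nuclei apart from every interneuron. In unscaled CPM, which leave out the TMM factors, Erbb4 had 10756, 10371, 8171 and 8777 in Pvalb nuclei and 9463, 9322, 8745 and 8276 in Vip nuclei, and Kcnc2 had 3440, 3227, 2694 and 2560.3 in Pvalb nuclei and 2128, 1701, 1478 and 1442 in Sst nuclei. Of the rule genes, Pvalb itself had 75.2, 89.3, 58.8 and 80.2 unscaled CPM. The rule gene Cox6a2, a muscle-type subunit of cytochrome c oxidase, moved with the label instead. It had 11.5, 30.9, 52.6 and 45.1 unscaled CPM in Pvalb nuclei and 0.701, 1.15, 4.28 and 3.22 in the other nuclei. With Cox6a2 left out of the rule and 3 of the other 5 genes required, 7, 11, 22 and 17 Pvalb nuclei were lost and 549 remained. This alternative was chosen after seeing the data. The enrichment in marker genes describes the nuclei, which were chosen by correlated genes, and was not tested. Markers of chandelier cells were few, with 96, 51, 90 and 64 UMIs over 4 genes, led by Gpr149. Adarb2, a marker of Vip and Lamp5 interneurons, was not at background. It had 1071, 726, 156 and 869 UMIs, of which 2715 of 2822 lay in 21 nuclei with at least 10 UMIs each (8, 6, 1 and 6 per library). Whether these 21 nuclei are doublets or another kind of interneuron was not tested, and the main counts are also given without them.

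Several other facts bear on the membership. Scrublet, a doublet caller, marked 19, 7, 8 and 9 Pvalb nuclei, and 6 nuclei in all carried a barcode that another library also used. In 3 nuclei of Sel1L Syn-Cre replicate 1, a male library, UMIs of Xist were present and Ddx3y was not. Each label held 1 male library (replicate 1, with Ddx3y at 48.5 and 55.1 unscaled CPM in Pvalb nuclei) and 1 female library (replicate 2, with Ddx3y at 0 and Xist at 1115 and 1199 unscaled CPM). Myelin RNA of oligodendrocytes was also counted in Pvalb nuclei, with 250.4, 118, 185 and 46.1 unscaled CPM over 10 marker genes, led by Mbp. The same list had 1416, 1059, 412 and 328 unscaled CPM in the other nuclei, where both libraries labelled Sel1L Syn-Cre were the lower, whereas in Pvalb nuclei the labels overlapped. At the edge of the rule, 114, 59, 55 and 59 nuclei had exactly 3 of the 6 marker genes, and 138, 73, 88 and 102 inhibitory nuclei stayed outside with 2 of them. Those just inside had 60.8, 54.0, 14.3 and 46.8 unscaled CPM of Pvalb and those just outside 8.41, 23.6, 20.2 and 16.7, while Adarb2 stood at 609, 882, 206 and 1166 inside and at 2653, 1691, 2723 and 2549.5 outside.

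**Figure D1:**
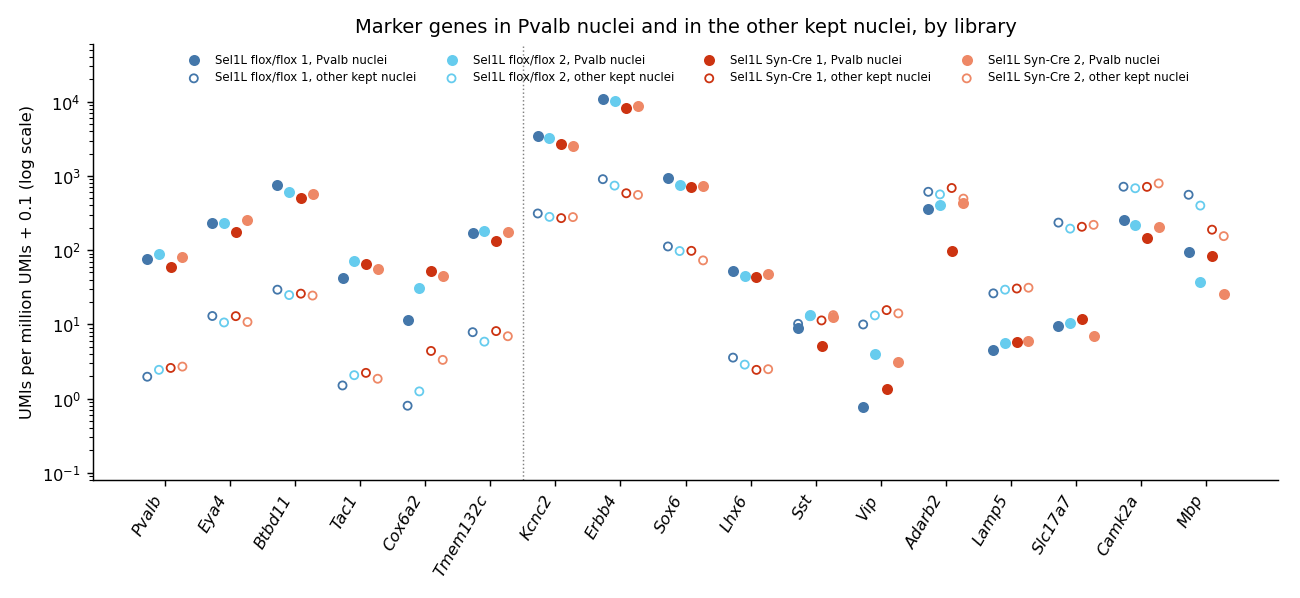
Level of 17 genes in the Pvalb nuclei (filled points) and in the other kept nuclei (open points) of each library, as unscaled CPM plus 0.1 on a log axis, with the 6 marker genes of the rule left of the dotted line. Kcnc2, Erbb4, Sox6 and Lhx6, which the rule did not use, were higher in the Pvalb nuclei of every library, and Camk2a, Lamp5 and Mbp were lower. Slc17a7, Sst and Vip, which the rule capped, stand right of the line as well, and their levels were limited by it. Sst was not lower in every library. In Sel1L flox/flox replicate 2 it had 13.2 unscaled CPM in Pvalb nuclei and 12.8 in the other nuclei.

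The targeted gene was looked up first. Sel1l (chr12:91806043-91849157, GRCm38, minus strand) had 295, 182, 686 and 580 UMIs in Pvalb nuclei, or 104, 102, 428 and 284 CPM. The Sel1l level was higher in both libraries labelled Sel1L Syn-Cre, by 1.78 ± 0.18 on the log2 scale (SE, adjusted p = 3.76e-05, edgeR's quasi-likelihood test, n = 2 against 2). Counts come from the 3′ end of the RNA, and the exon removed by Cre is not given in the sources used here, so these counts do not test the deletion. The features include the Cre transcript, which had 82, 0, 49 and 54 UMIs in 63, 0, 38 and 45 Pvalb nuclei, or 27.8, 0, 30.7 and 26.7 unscaled CPM. The 0 of 1814318 UMIs in Sel1L flox/flox replicate 2 allows up to 1.65 unscaled CPM, a floor of 3 counts that covers counting error only. The library labelled Sel1L flox/flox replicate 1 therefore carried Cre RNA in its Pvalb nuclei at a level between those of the libraries labelled Sel1L Syn-Cre. Its 46 ERAD and ER folding genes had 15.7 UMIs per 10000 in Pvalb nuclei, beside 15.5 in replicate 2 of the same label. Whether this mouse carried Cre or floxed alleles was not tested. Cre does not follow the labels, so every direction below is one between libraries as labelled. For each list with a call, the counts of members that passed are repeated without Sel1L flox/flox replicate 1.

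The summed UMIs of the Pvalb nuclei were compared between the labels with edgeR. Of 11697 genes tested, 394 passed an adjusted p of 0.05 (3.37%), 217 of them up (1.86%) and 177 down (1.51%) under the label Sel1L Syn-Cre, and 1760 had an unadjusted p under 0.05. The genes that rose furthest belonged mostly to ER protein quality control and the amino acid response, and the genes that fell were longer and more abundant. The median gene span was 209 kb for genes that fell, 31.7 kb for genes that rose and 29.1 kb for all genes tested, and the median of the mean CPM was 102, 40.6 and 28.3. DESeq2 called 196 genes (102 higher and 94 lower). Scaling by library totals in place of TMM called 256 higher and 129 lower, or 66.5% higher in place of 55.1%. Without Sel1L flox/flox replicate 1 the count was 384 (216 higher and 168 lower), of which 272 were among the 394. It was 260 without the 21 nuclei rich in Adarb2, 257 of them among the 394, 333 with Cox6a2 left out of the rule, 305 of them among the 394, and 141 when 4 of the 6 marker genes were required.

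Of 21 ERAD genes tested, 8 were higher, against 1.86% of all genes. One of the 8 is Sel1l, the targeted gene, described above. None was lower, and the list's median log2 fold change was 0.66, against 0.01 over all genes tested. Derl3 (chr10:75893413-75895941, plus strand), a Derlin of the retrotranslocation channel, had 5, 0, 126 and 87 UMIs. Derl3 was thus near the floor under the label Sel1L flox/flox and counted in both libraries labelled Sel1L Syn-Cre, at 78.6 and 42.6 CPM. Its fitted log2 fold change was 5.72 ± 0.51 (SE, adjusted p = 2.22e-05, edgeR), and the ratio of its summed UMIs, scaled to the totals, was 56.1 with a counting interval of 23.7 to 175. Herpud1 (chr8:94386438-94395377, plus strand), an ER membrane protein that recruits substrates to the HRD1 complex, had 36.4, 44.9, 179.7 and 114 CPM. The log2 fold change of Herpud1 was 1.86 ± 0.21 (SE, adjusted p = 1.34e-04). Derl1, a further Derlin, had 22.2, 18.5, 71.1 and 43.6 CPM and a log2 fold change of 1.46 ± 0.25. Derl2, Selenos, Selenok and the mannosidase-like Edem1 also rose, by 0.99 to 1.33 on the log2 scale. In each of these the groups did not overlap, and Sel1L Syn-Cre replicate 1 stood above replicate 2. The rest of the machinery stayed closer to the control level. Syvn1, which encodes HRD1 itself, had a log2 fold change of 0.66 that did not pass, as did the lectin Os9 at 0.57 and the ATPase Vcp at 0.28. Among the members with the most UMIs that did not pass, the lectin Erlec1 had 88.6, 101, 93.6 and 88.2 CPM (log2 fold change -0.06) and the VCP cofactor Nploc4 84.4, 55.5, 65.5 and 63.7 CPM (-0.14). The ERAD count was 7 without Sel1L flox/flox replicate 1, 6 without the 21 nuclei rich in Adarb2, and 5 with DESeq2.

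Most genes of the folding machinery of the ER lumen rose. Of 24 genes tested, 21 were higher, against 1.86% of all genes, and none lower, with a median log2 fold change of 1.57. The count was also 21 without Sel1L flox/flox replicate 1. Sdf2l1 (chr16:17130138-17132383, minus strand), a partner of the ER DNAJ proteins, had 3, 2, 57 and 38 UMIs, and its log2 fold change was 4.54 ± 0.52 (SE, adjusted p = 1.34e-04, edgeR). Hspa5, which encodes the HSP70 chaperone BiP, had 25.1, 31.4, 211 and 106 CPM (log2 fold change 2.50 ± 0.27). Its co-chaperone Dnajc3 (chr14:118937976-118981697, plus strand) had 47.3, 37.0, 289 and 184 CPM (2.46 ± 0.21, adjusted p = 2.22e-05). Hyou1, the nucleotide exchange factor of BiP, had 8.12, 11.8, 73.0 and 53.9 CPM (2.70 ± 0.26), and Hsp90b1, the HSP90 of the ER, had 82.3, 51.0, 309 and 217 CPM (1.95 ± 0.20). For every one of these the lower library labelled Sel1L Syn-Cre was far above the higher library labelled Sel1L flox/flox. Several protein disulfide isomerases, which form and shuffle disulfide bonds, rose. Pdia6 had 21.5, 21.9, 104 and 87.7 CPM (2.14 ± 0.19), Pdia4 a log2 fold change of 1.99, P4hb of 1.61 and Pdia3 of 1.30. Txndc5, a member of the same family, had 9.89, 9.54, 19.3 and 12.7 CPM and did not pass (0.70, adjusted p = 0.3598, edgeR). Creld2, a small ER protein secreted under stress, had 10, 3, 52 and 37 UMIs (3.13 ± 0.44), and Manf, a secreted BiP-binding factor, had 65.7, 74.0, 182 and 182 CPM (1.39 ± 0.15). The lectin chaperones Calr and Canx rose by 1.599 and 0.97 on the log2 scale, and Uggt1, which senses unfolded glycoproteins, by 0.80. The oxidases parted. Ero1lb rose by 1.65, whereas Ero1l had 48.0, 45.998, 54.9 and 45.1 CPM and a log2 fold change of 0.08. Sil1, a second exchange factor of BiP, had 44.9, 49.4, 45.5 and 30.4 CPM (-0.32, adjusted p = 0.548, edgeR). Over all alternatives the count of higher genes in this list lay between 16, with 4 marker genes required, and 22.

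**Figure D2:**
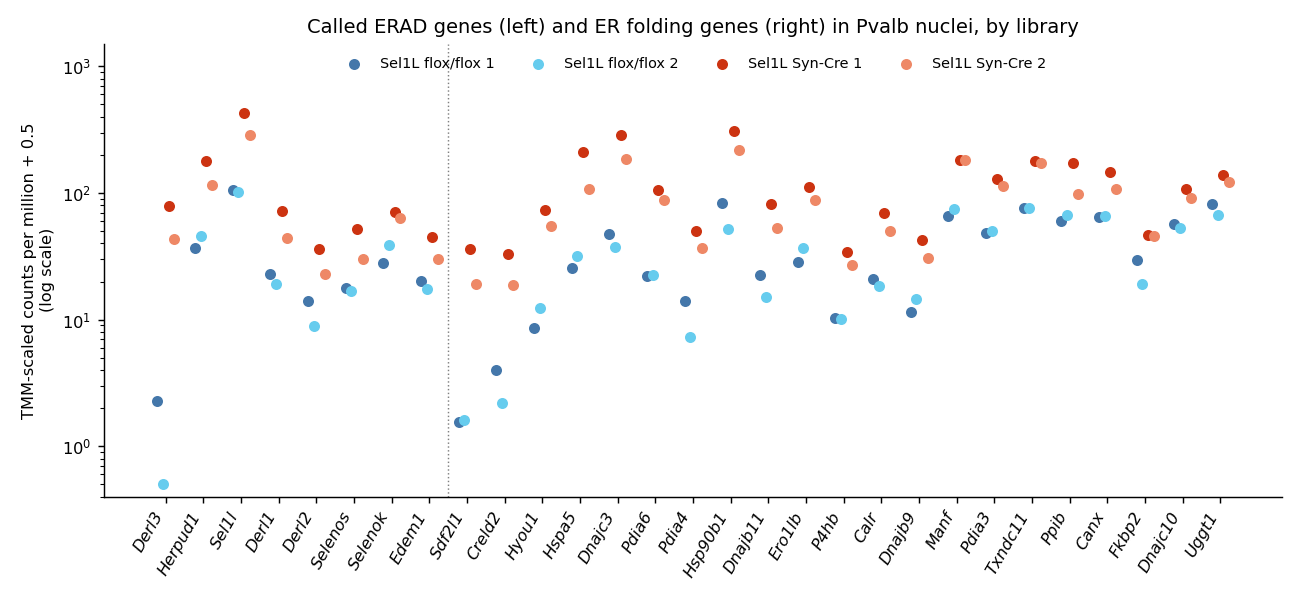
TMM-scaled CPM plus 0.5, on a log axis, of the 8 ERAD genes (left of the dotted line) and 21 ER folding genes that passed the test in Pvalb nuclei, with 1 point per library. Both libraries labelled Sel1L Syn-Cre stood above both labelled Sel1L flox/flox for every gene shown, and in most genes replicate 1 stood above replicate 2.

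Promoters were read from RefSeq (GRCm38.p6) to see which of the genes that rose furthest hold the letters of known stress elements. For ERAD, ER folding and the ATF4 targets, the 2 genes with the largest log2 fold changes among those that passed and have an entry are shown as the 250 bases before the start site, 5′ to 3′ on the strand of the gene. Both strands of 300 bases per gene, of which 50 lie after the start, were searched for the ER stress response element (ERSE, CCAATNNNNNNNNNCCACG), ERSE-II (ATTGG, any 1 base, then CCACG), the core of the UPR element (TGACGTGG) and a C/EBP-ATF element (TTGCATCA). Capitals mark the fixed letters of a match.
Derl3 (chr10:75893148-75893397, plus strand): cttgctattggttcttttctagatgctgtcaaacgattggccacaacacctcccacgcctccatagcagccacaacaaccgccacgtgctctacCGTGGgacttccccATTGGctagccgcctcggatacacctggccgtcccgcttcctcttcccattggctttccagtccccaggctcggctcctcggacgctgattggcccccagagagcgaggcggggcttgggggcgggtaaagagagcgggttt
Herpud1 (chr8:94386179-94386428, plus strand): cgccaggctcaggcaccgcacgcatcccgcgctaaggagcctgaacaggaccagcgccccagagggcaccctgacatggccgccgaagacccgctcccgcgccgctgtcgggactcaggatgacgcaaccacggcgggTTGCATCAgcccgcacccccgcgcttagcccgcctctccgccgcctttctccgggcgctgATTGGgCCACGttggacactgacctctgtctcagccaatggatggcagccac
Sdf2l1 (chr16:17132384-17132633, minus strand): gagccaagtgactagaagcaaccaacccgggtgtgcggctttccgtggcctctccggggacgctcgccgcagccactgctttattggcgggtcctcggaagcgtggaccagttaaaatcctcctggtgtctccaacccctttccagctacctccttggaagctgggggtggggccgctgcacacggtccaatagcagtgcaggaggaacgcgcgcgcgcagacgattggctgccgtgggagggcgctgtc
Creld2 (chr15:88819396-88819645, plus strand): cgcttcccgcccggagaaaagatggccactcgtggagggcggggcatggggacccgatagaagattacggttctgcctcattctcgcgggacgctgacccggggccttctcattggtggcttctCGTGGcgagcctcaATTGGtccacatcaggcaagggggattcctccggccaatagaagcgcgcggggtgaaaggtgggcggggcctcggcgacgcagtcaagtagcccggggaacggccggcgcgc
Trib3 (chr2:152344061-152344310, minus strand): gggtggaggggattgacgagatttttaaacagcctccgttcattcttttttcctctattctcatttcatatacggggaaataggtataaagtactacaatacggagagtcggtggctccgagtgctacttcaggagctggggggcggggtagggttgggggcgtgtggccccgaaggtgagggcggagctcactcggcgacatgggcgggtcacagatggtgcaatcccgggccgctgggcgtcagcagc
Slc7a11 (chr3:50443614-50443863, minus strand): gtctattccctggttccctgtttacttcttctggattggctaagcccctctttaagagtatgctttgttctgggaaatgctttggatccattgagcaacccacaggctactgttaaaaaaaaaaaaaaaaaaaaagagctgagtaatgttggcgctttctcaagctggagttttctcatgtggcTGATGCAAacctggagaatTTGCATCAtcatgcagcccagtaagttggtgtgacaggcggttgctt
Derl3 and Creld2 each held ERSE on the opposite strand, Herpud1 held ERSE-II and a C/EBP-ATF element, and Slc7a11, a cystine transporter, held a C/EBP-ATF element on each strand. Sdf2l1 and Trib3 held none of these letters in the window. ERSE was in 35 of 27025 promoters (0.130%), and in 15 of the 8935 promoters of genes tested (0.168%). Of the 18 promoters of ER folding genes that rose, 7 held it (Calr, Canx, Creld2, Dnajc3, Hsp90b1, Hspa5 and Pdia6). The whole ER folding list, risen or not, had the same 7 among 20 promoters. ERSE-II was in 10 promoters of the table (0.0370%), among them Herpud1 and Dnajb11. The UPR element core was in 0.607% and the C/EBP-ATF element in 0.929% of the table. Among the 159 promoters of all genes that rose, 9 held ERSE, 3 ERSE-II, 3 the UPR element core and 7 the C/EBP-ATF element, and among the 134 of genes that fell none held any of the 4. These are matches of letters and show no binding. The lists hold known ER stress genes, so the matches are no independent test of a link to the rise.

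Genes of ER entry, glycosylation and export rose in part. Of 32 tested, 9 were higher, against 1.86% of all genes, and none lower, and the median log2 fold change was 0.74. Sec24d, a cargo receptor of the COPII coat, had 13.4, 12.3, 89.2 and 61.7 CPM (2.52 ± 0.24, SE, adjusted p = 3.16e-05, edgeR). The groups were far apart in Sec24d and close in its relative Sec24a, with 109.8, 85.8, 117 and 98.0 CPM (0.12), and in the outer coat gene Sec31a, with 91.1, 78.5, 107 and 114 CPM (0.38, adjusted p = 0.249, edgeR). The catalytic oligosaccharyltransferase subunit Stt3a had 33.2, 27.5, 83.0 and 67.1 CPM (1.28 ± 0.19). Sec63 and Sec61a1, of the translocon, rose by 0.92 and 1.01, and Spcs2, of the signal peptidase, by 1.10. With DESeq2 this count fell to 3, and it was 6 when either library labelled Sel1L flox/flox was left out alone.

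The sensors and transcription factors of the UPR rose in part. Of 14 tested, 4 were higher, against 1.86% of all genes, and none lower, with a median log2 fold change of 0.79. Without Sel1L flox/flox replicate 1 there were 5. Xbp1 had 54, 22, 99 and 93 UMIs (1.72 ± 0.25, SE, adjusted p = 0.00106, edgeR). The counts are of all Xbp1 RNA and do not show its splicing by IRE1α. Ddit3, which encodes CHOP, had 20.1, 21.3, 78.0 and 56.8 CPM (1.69 ± 0.22), and Creb3l2, an ER-bound transcription factor, had 51.2, 46.6, 120.4 and 112 CPM (1.24 ± 0.16). Atf6 had 86.2, 75.7, 180.3 and 108 CPM (0.82 ± 0.20, adjusted p = 0.0356), and its call was lost in 7 of 17 alternatives. The PERK gene Eif2ak3 had 46.3, 43.2, 69.3 and 61.2 CPM (0.54), and Cebpg, which pairs with ATF4, 29.3, 37.6, 59.9 and 37.2 CPM (0.54). Neither passed, nor did Ern1, which encodes IRE1α, at 0.26, or Atf4 at 0.41.

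Targets of ATF4 rose in 13 of 19 genes tested, against 1.86% of all genes, with none lower and a median log2 fold change of 1.49. Cth (chr3:157894248-157925077, minus strand), which makes cysteine by transsulfuration, had 1, 2, 58 and 26 UMIs. The ratio of its summed UMIs, scaled to the totals, was 36.9 for Sel1L Syn-Cre over Sel1L flox/flox, with a counting interval of 12.2 to 182, and its fitted log2 fold change was 5.06 (adjusted p = 5.26e-04, edgeR). Trib3, a pseudokinase that feeds back on ATF4, had 4, 4, 54 and 20 UMIs (3.55 ± 0.62), a call that was lost without Sel1L Syn-Cre replicate 1. Slc7a11 had 7.42, 9.54, 127 and 35.8 CPM (3.25 ± 0.47). In these 3 genes replicate 1 labelled Sel1L Syn-Cre stood well above replicate 2. Slc38a2, a neutral amino acid transporter, was more even, with 114, 139, 253 and 222 CPM (0.92 ± 0.15). Other transporters rose as well, Slc7a3 by 2.11, Slc7a5 by 1.16, Slc7a1 by 1.09 and Slc3a2 by 0.62 on the log2 scale, as did Eif4ebp1, a brake on translation, by 2.31, and Nupr1, a stress-induced chromatin protein, by 1.83. Asns, the asparagine synthetase gene, had 38.5, 51.0, 69.9 and 42.1 CPM (0.32) and did not pass, and Vldlr had 32.5, 29.2, 39.3 and 28.9 CPM (0.12). The count was 10 without Sel1L flox/flox replicate 1 and 4 without Sel1L Syn-Cre replicate 1.

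Aminoacyl-tRNA synthetases, which charge tRNAs with amino acids, and enzymes of serine and one-carbon metabolism rose in part. Of 18 cytosolic tRNA synthetase genes tested, 3 were higher, against 1.86% of all genes, with a median log2 fold change of 0.43. They were Wars (24.7, 32.5, 102 and 57.3 CPM, log2 fold change 1.49 ± 0.25), Lars (0.86) and Nars (0.79). Sars and Eprs, the members with the most UMIs that did not pass, had log2 fold changes of 0.58 and 0.39. Of 14 genes of serine and one-carbon metabolism tested, 2 were higher, against the same 1.86%, with a median of 0.49. Without Sel1L flox/flox replicate 1 the counts were 2 and 2, and without the 21 nuclei rich in Adarb2 they were 1 and 1. Aldh1l2, of mitochondrial folate metabolism, had 40.6, 46.6, 209.7 and 73.0 CPM (1.69 ± 0.33), and the phosphoserine phosphatase gene Psph 24.4, 24.7, 66.8 and 37.2 CPM (1.06 ± 0.26). Mthfd2 had 42.4, 52.2, 99.8 and 48.5 CPM (0.64) and Mat2a 204, 214, 298 and 216 CPM (0.29), with Sel1L Syn-Cre replicate 2 inside the control range for Mthfd2 and close above it for Mat2a. The calls of Lars, Nars and Psph were each lost in 5 to 7 of the 17 alternatives.

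Of the 10 genes that rose furthest with at least 50 UMIs and no overlap between labels, 7 are described above or belong to ER folding and the amino acid response, including Pdia5 (3.88, 1.68, 38.1 and 22.04 CPM, log2 fold change 3.27 ± 0.42), a further disulfide isomerase. The other 3 are of other kinds. Ostn, which encodes the secreted peptide osteocrin, had 3, 4, 74 and 43 UMIs (4.38 ± 0.51, adjusted p = 1.39e-04, edgeR). The locus 1700016P03Rik, host of the miRNA genes Mir212 and Mir132, had 7.77, 13.5, 69.9 and 137 CPM (3.36 ± 0.32), and here replicate 2 labelled Sel1L Syn-Cre was the higher. It also rose in the other kept nuclei, which had 30.7, 23.2, 97.0 and 139 CPM. The rest of the 10 were likewise higher there in both libraries labelled Sel1L Syn-Cre. Derl3 had 0.560, 0.544, 15.6 and 9.32 CPM in the other kept nuclei, Sdf2l1 1.86, 1.56, 10.0 and 7.19, and Pdia5 11.4, 8.51, 14.3 and 12.1. These rises were thus not confined to Pvalb nuclei. The uncharacterised Gm44643 had 9, 1, 52 and 47 UMIs (3.65 ± 0.45). Ostn and 1700016P03Rik overlap annotated genes on the opposite strand. Among the other named genes that rose, so do Herpud1, Hsp90b1, Pdia6, Sec63, Spcs2, Ddit3, Slc7a11, Wars, Lars, Aldh1l2, Psph and Pde10a. Others, such as Cth and Pdia5, overlap an annotated gene on the same strand. The counting's use of strand is not given in the sources used here, and whether reads of such pairs were kept apart was not tested.

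Of 8 genes of neuropeptides and their processing tested, 3 were higher, against 1.86% of all genes, and none lower. Without Sel1L flox/flox replicate 1 there were 2, and without the 21 nuclei rich in Adarb2 there was 1. Scg2, a granin of dense-core vesicles, had 31.8, 44.9, 101 and 134 CPM (1.65 ± 0.20, SE, adjusted p = 2.03e-04, edgeR). Vgf, another granin, had 10.6, 18.5, 28.7 and 36.3 CPM (1.22 ± 0.29). Cort, which encodes cortistatin, a somatostatin-like peptide of interneurons, had 9.89, 10.7, 18.1 and 56.3 CPM (1.90 ± 0.40), so its rise was carried mainly by replicate 2, and its call was lost without the 21 nuclei rich in Adarb2. These 3 genes were higher in replicate 2 than in replicate 1 under the label Sel1L Syn-Cre. Npy, Cck, Pcsk1, Pcsk2 and Cpe did not pass, and Cpe, which trims prohormones, had 179, 173, 162 and 161 CPM (-0.12). The 6 activity genes tested gave no call, near the 1.86% of all genes that were higher, whereas 3 genes of the list were higher without Sel1L flox/flox replicate 1, where 216 of 12207 genes were. With all 4 libraries Homer1 had 98.2, 80.2, 115 and 159 CPM (0.62, adjusted p = 0.0689, edgeR), and Nr4a1 14.8, 23.6, 16.8 and 49.5 CPM. Homer1 passed in 7 of 17 alternatives.

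**Figure D3:**
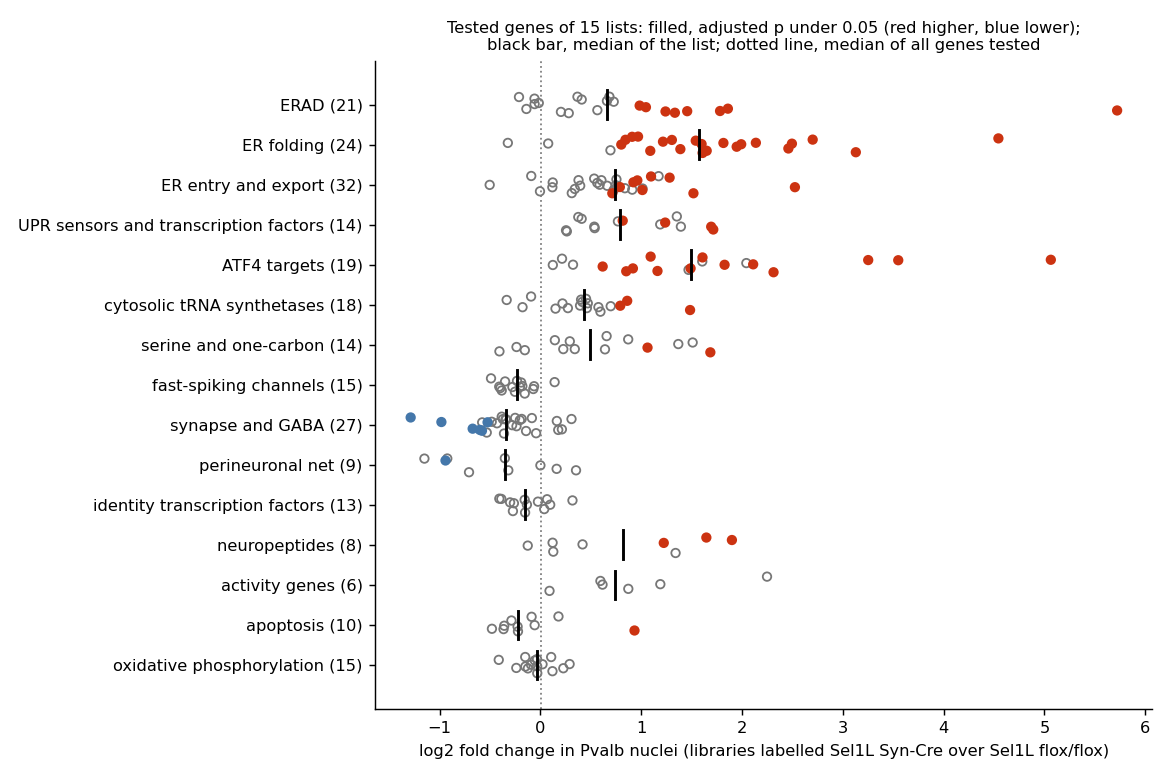
Log2 fold change in Pvalb nuclei of each tested gene of 15 lists, with the number tested in brackets, filled points for genes that passed the test, and the median of each list as a black bar. The ER folding and ATF4 target lists had medians of 1.57 and 1.49 against 0.01 over all genes, and the synapse list had a median of -0.34.

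The 10 genes that fell furthest, by the same rule as the rises, were of several kinds. Ano1 (chr7:144588549-144751974, minus strand), a calcium-activated chloride channel, had 70, 18, 3 and 5 UMIs (log2 fold change -3.02 ± 0.54, SE, adjusted p = 0.00446, edgeR). Htr2c (chrX:146962513-147197277, plus strand), a serotonin receptor, had 42.7, 51.0, 8.11 and 9.80 CPM (-2.36 ± 0.26, adjusted p = 1.23e-04). In the other kept nuclei Htr2c had 83.5, 72.5, 126 and 70.2 CPM, with no such split. The fall was -0.93 and did not pass (adjusted p = 0.0520, edgeR) when only 2 of the 6 marker genes were required. Prkg2, cGMP-dependent protein kinase 2, had 43.8, 39.3, 9.36 and 8.33 CPM (-2.24 ± 0.26), its relative in cGMP signalling Mrvi1 58, 19, 2 and 6 UMIs (-2.85 ± 0.53), and the phosphodiesterase Pde11a 17.0, 51.6, 6.24 and 6.37 CPM (-2.35 ± 0.48). St8sia2, which adds polysialic acid, had 18.4, 15.7, 3.12 and 4.41 CPM (-2.15 ± 0.40). Kank4, Asb2 and Glis3 completed the 10 largest falls, together with Ugt8a, an enzyme of myelin galactolipids, at 48, 15, 5 and 2 UMIs. Ugt8a is a gene of oligodendrocytes, whose marker list overlapped between the labels in Pvalb nuclei. It had 76.4, 46.9, 17.7 and 16.9 CPM in the other nuclei. The part of oligodendrocyte RNA in this result was not tested. Without Sel1L flox/flox replicate 1, Ano1, Mrvi1, Kank4, Ugt8a and Glis3 no longer passed, while Htr2c, Prkg2, St8sia2, Asb2 and Pde11a did. Pde11a, whose controls were far apart, did not pass without Sel1L flox/flox replicate 2. All of these 10 except Htr2c, Prkg2 and Ugt8a overlap an annotated gene on the opposite strand.

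Of the 10 genes that passed with the highest mean CPM and a log2 fold change of at least 0.58 in size, 9 fell, by 0.60 to 0.85. Lsamp, an adhesion protein of limbic circuits, had 8699, 7745, 5351 and 5285 CPM (-0.63 ± 0.11, SE, adjusted p = 0.00323, edgeR), and Adgrb3, an adhesion GPCR at synapses, 4645, 4301, 2699 and 2809.9 CPM (-0.70 ± 0.11). Lrrc4c, the netrin-G ligand, had 4952, 4879, 3184 and 3272 CPM (-0.61 ± 0.11), and Ctnna2, an α-catenin of neurons, 2411, 1717, 1187 and 1097 CPM (-0.85 ± 0.15). Pcdh9, Cntn5, Etl4, Dock4 and the kainate receptor gene Grik2 fell in the same range. In the other nuclei some of these genes were also lower in both libraries labelled Sel1L Syn-Cre. Lrrc4c had 2100.1, 2215, 1982 and 1856 CPM there, Pcdh9 6497, 5286, 4533 and 4267, and Cntn5 1258, 1328, 1010 and 912. Others overlapped between the labels there, such as Lsamp with 6216, 5056, 5572 and 4858 CPM. Pde10a, a phosphodiesterase, was the exception among the 10 in Pvalb nuclei, rising from 968 and 714 to 1273 and 1249 CPM (0.58 ± 0.14). Its call was lost in 6 of 17 alternatives. Without Sel1L Syn-Cre replicate 1, 8 of the 9 falls no longer passed and kept their direction, Ctnna2 being the exception.

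Genes of GABA transmission and synapses fell in part. Of 27 tested, 6 were lower (1.51% of all genes were) and none higher, with a median log2 fold change of -0.34. Among them, Syt2, the fast calcium sensor of Pvalb terminals, had 133, 117, 48.0 and 77.9 CPM (-0.98 ± 0.20), and the adhesion gene Cntnap4 had 763, 928, 608 and 524 CPM (-0.58 ± 0.14). In both genes the labels did not overlap. Erbb4 was lower as well (-0.37 ± 0.10) and did not pass (adjusted p = 0.0612, edgeR), and Syt1, the calcium sensor of most other terminals, had 2566, 2553, 2392 and 2438 CPM (-0.08). Slc32a1, the vesicular GABA transporter gene, had a log2 fold change of -0.36. The 6 calls depended on the processing. There were 6 without Sel1L flox/flox replicate 1, 3 with library totals in place of TMM, 2 with DESeq2, 1 without the 21 nuclei rich in Adarb2 and 0 when 4 of the 6 marker genes were required.

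None of 15 channel genes passed, where 3.37% of all genes did, so that a count of 0 is near the background (1 was lower without Sel1L flox/flox replicate 1, and 1 with Cox6a2 left out of the rule), and 14 of 15 had log2 fold changes below 0, with a median of -0.23 and a range from -0.49 to 0.14. Kcnc2, whose values are given above, had a log2 fold change of -0.40 ± 0.11 (SE, adjusted p = 0.0709, edgeR), and it passed in 5 of 17 alternatives. None of 13 transcription factors of interneuron identity passed either, against the same 3.37%. Mef2c had 1383, 1479.8, 1106 and 1281 CPM (-0.26), Rora 1237, 1180.2, 1189.9 and 1188 CPM (-0.02), and Lhx6 a log2 fold change of -0.15. Of 9 perineuronal net genes tested 1 was lower, against 1.51% of all genes, and 2 were without Sel1L flox/flox replicate 1. Bcan, which encodes the proteoglycan brevican, fell, with 81.2, 89.2, 39.9 and 47.5 CPM (-0.95 ± 0.17, adjusted p = 0.00502), in all 17 alternatives. Tnr had 531, 496, 378 and 427 CPM (-0.35), Ptprz1 86.2, 72.9, 68.0 and 91.1 CPM (0.00), and Acan, the aggrecan gene, a log2 fold change of -0.32. Of 10 apoptosis genes tested 1 was higher, against 1.86% of all genes. Bcl2l11, which encodes the BH3 protein BIM, rose (17.7, 18.5, 33.1 and 35.8 CPM, 0.93 ± 0.23, adjusted p = 0.0384), a call lost in 9 of 17 alternatives, among them those without Sel1L flox/flox replicate 1, where another gene of the list passed, and without the 21 nuclei rich in Adarb2 or with Cox6a2 left out of the rule, where none did. Bcl2 had 76.6, 69.0, 47.4 and 65.2 CPM (-0.36) and Bcl2l1 42.4, 35.3, 32.4 and 31.8 CPM (-0.29). None of 15 genes of oxidative phosphorylation and its fuel supply passed, again near the 3.37% of all genes, and their median log2 fold change was -0.03, with Atp5a1 at 164, 205, 169.7 and 189 CPM and Cox4i1 at 115, 151, 125 and 123 CPM.

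The share of Pvalb nuclei overlapped between the labels. They were 21.7%, 26.3%, 21.2% and 26.7% of the inhibitory nuclei, with 95% Wilson intervals of 19.2 to 24.5, 22.8 to 30.2, 18.0 to 24.8 and 23.2 to 30.5. The means were 24.0% ± 3.25 and 24.0% ± 3.87 (SD, n = 2 each). Replicate 1 of each label lay below replicate 2, and the labels differed by -0.0788 percentage points (two-sided exact permutation test, p = 1). With 2 against 2 libraries that test cannot go below 0.333. Since Cox6a2, a gene of the rule, was higher under the label Sel1L Syn-Cre, the share was also taken with Cox6a2 left out. It was then 20.97%, 24.2%, 17.3% and 23.7%, a difference of -2.13 percentage points (p = 0.667, the same exact permutation test). The count of Pvalb nuclei rests on marker RNA and on sampling of nuclei, and is not a count of cells in the tissue.

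Whether all Pvalb nuclei shared the ER response was read nucleus by nucleus. Each nucleus was thinned to 5000 UMIs, which left out 1 and 2 nuclei of the libraries labelled Sel1L Syn-Cre and none of the others, and the UMIs of the 46 ERAD and ER folding genes were summed as an ER score, which includes Sel1l. The median ER score was 8, 9, 21 and 16 UMIs, and the 10th to 90th percentiles ran from 5 to 11.3, 4 to 12, 15 to 29 and 10 to 24. Of the nuclei, 3.03%, 3.60%, 93.2% and 72.3% lay above 13 UMIs, the 95th percentile of the nuclei labelled Sel1L flox/flox, whose own share above it is fixed by that choice. The means were 3.31% ± 0.40 and 82.8% ± 14.8 (SD, n = 2 each, two-sided exact permutation test, p = 0.333, the smallest it can give). The unthinned level over all Pvalb nuclei was 15.7, 15.5, 42.4 and 32.3 UMIs per 10000. At or below 8 UMIs, the median of the nuclei labelled Sel1L flox/flox, lay 2 of 118 and 7 of 148 nuclei labelled Sel1L Syn-Cre, against 115 of 198 and 69 of 139 of the controls. How many nuclei lay within the control range depended on its limit. In Sel1L Syn-Cre replicate 2 the share above it was 52.7% with the 99th percentile as limit and 50.7% with nuclei thinned to 3000 UMIs, against 87.3% and 83.2% in replicate 1. With Sel1l and Derl3 left out of the score, the shares above its own 95th percentile were 5.05%, 4.32%, 89.8% and 65.5%. Of the 3 Xist-positive nuclei in the male library, 1 scored 15 and the others 4 and 9.

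The ER score was also read by whether a nucleus held a Cre UMI, as counts with no test. Under the label Sel1L Syn-Cre, 35 of 38 nuclei with a Cre UMI and 75 of 80 without one lay above 13 in replicate 1, as did 34 of 44 and 73 of 104 in replicate 2. In Sel1L flox/flox replicate 1, 1 of 63 nuclei with a Cre UMI and 5 of 135 without one did. A nucleus without a Cre UMI may still have held Cre RNA, since detection is partial at this depth. The ER score was weakly related to the summed UMIs of 22 ATF4 targets within a library, with Spearman's rho of 0.0936, 0.0657, 0.233 and 0.235 over nuclei. These values are a description of sparse counts from shared libraries.

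**Figure D4:**
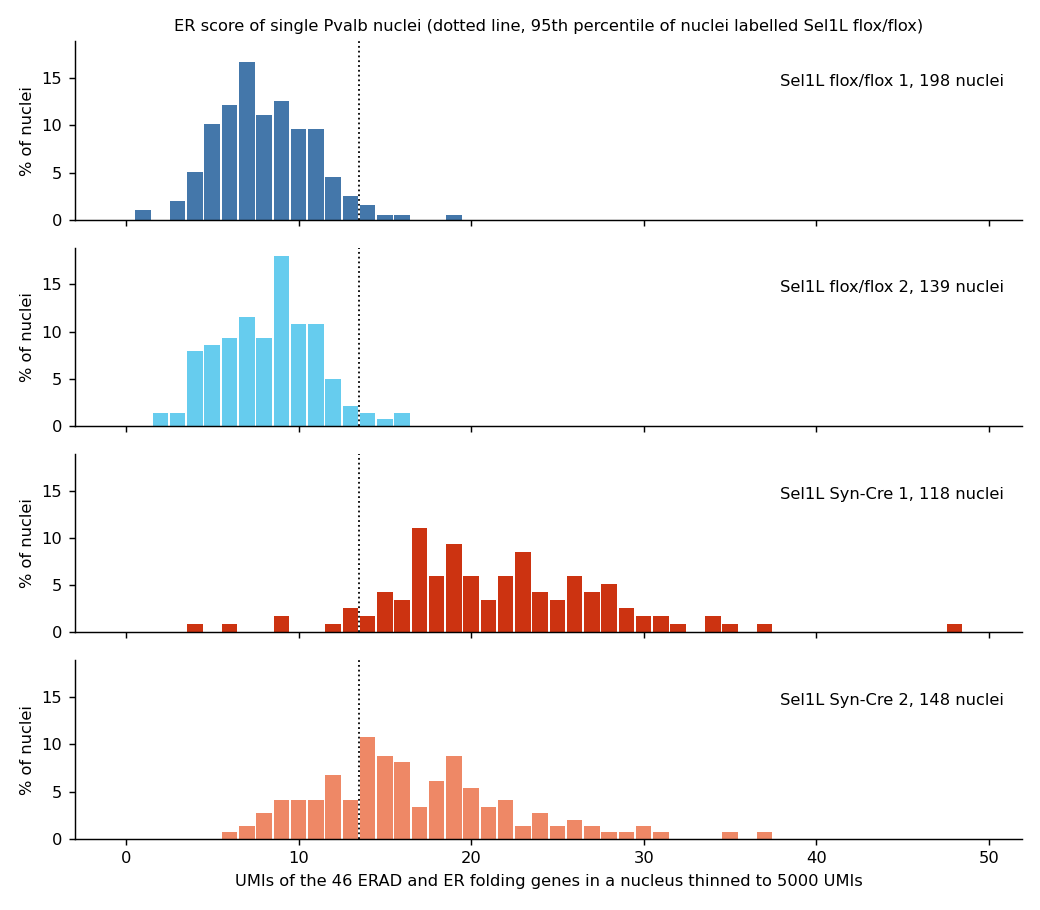
Distribution of the ER score, in UMIs of 46 genes per nucleus thinned to 5000 UMIs, as a percentage of the Pvalb nuclei of each library, with a dotted line at the 95th percentile of nuclei labelled Sel1L flox/flox. The medians were 8, 9, 21 and 16 UMIs from top to bottom.

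Somatostatin (Sst) interneurons come from the same embryonic source as Pvalb interneurons, and their response was compared in one model with library as a block. The 122 Sst nuclei (36, 22, 27 and 37 per library) had at least 5 Sst UMIs and met the same limits on Gad1 with Gad2, Slc17a7 and Vip. The marker genes of the Pvalb rule were not required of them. None of 11134 genes had a label difference that passed as unequal between Pvalb and Sst nuclei (0%, edgeR), while 674 had an unadjusted p under 0.05. DESeq2 also called 0, with 99 at an unadjusted p under 0.05. Dnajc3, for one, had a log2 fold change of 2.46 in Pvalb and 2.78 in Sst nuclei, a difference of -0.38 ± 0.30 (SE). Sel1l had 1.78 and 1.65 (difference 0.11 ± 0.25), Hspa5 2.50 and 3.47 (-0.98 ± 0.38), and Ddit3 1.69 and 2.65 (-1.01 ± 0.52). The median log2 fold change of the ER folding list was 1.57 over 24 genes in Pvalb nuclei and 1.58 over 21 genes in Sst nuclei. In the shared model 2 of 17 ATF4 targets had a difference above 0, with a median of -0.56, and 3 of 14 UPR genes did, with a median of -0.54. Only 11 and 9 of them had enough UMIs for a fit in Sst nuclei alone. The 2 comparisons share their mice. A missing call does not show that the types respond alike. On simulated counts of this size, 99 of 200 genes made to differ by 2 (log2) were recovered. Those 200 were drawn from genes with at least 50 UMIs in Pvalb nuclei and a minimum in Sst nuclei. All genes were simulated at 1 set dispersion, 0.03. Recovery among genes with fewer UMIs was not simulated and may be lower. The count of calls also depended on which libraries were fitted.

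Vip interneurons have another embryonic source. The 201 Vip nuclei (64, 43, 49 and 45 per library) had 0, 0, 0 and 2 Cre UMIs, where the Sst nuclei had 17, 0, 11 and 11. The floor of 3 counts is 4.97, 6.80, 6.15 and 7.13 unscaled CPM in Vip nuclei, below the 27.8, 30.7 and 26.7 measured in the 3 libraries whose Pvalb nuclei held Cre. The 46 ERAD and ER folding genes had 15.2, 14.1, 16.5 and 15.01 UMIs per 10000 in Vip nuclei. Single genes of the list were higher in both Vip libraries labelled Sel1L Syn-Cre. Hspa5 had 24.8, 24.9, 45.1 and 47.5, Herpud1 26.5, 18.1, 34.8 and 35.6, and Dnajc3 43.1, 43.1, 51.2 and 85.5 unscaled CPM there, with log2 fold changes of 0.88, 0.61 and 0.63 that did not pass, and their differences from Pvalb nuclei did not pass either. Of 11165 genes, 23 passed as unequal (0.206%), 14 with the larger and 9 with the smaller log2 fold change in Pvalb nuclei. Sel1l was among them (difference 2.46 ± 0.27, SE, adjusted p = 4.46e-04, edgeR). It had 114, 90.7, 79.9 and 52.3 unscaled CPM in Vip nuclei, where its log2 fold change of -0.64 did not pass. Hsp90b1, Sec24d, Pdia5 and Aldh1l2 also rose more in Pvalb nuclei, with differences of 1.58, 2.83, 4.24 and 3.24. Over all Vip nuclei these genes had 137, 38, 19 and 43 UMIs, and Sec24d and Pdia5 had too few for a fit in Vip nuclei alone, so the sizes of the last 3 differences rest on few UMIs. The median difference over the 24 fitted ER folding genes was 1.52, with 23 of 24 above 0 and 1 passing. On simulated counts of this comparison, with genes drawn in the same way, 130 of 200 genes made to differ by 2 (log2) were recovered. Its count and that against Sst nuclei therefore come from fits of unequal power and were not compared by a test. DESeq2 called 3 genes in this comparison, and leaving out each library in turn gave 42 to 138 calls.

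Of the differences from Vip nuclei with the smaller log2 fold change in Pvalb nuclei, some lay in falls in Pvalb nuclei and some also in higher values in Vip nuclei. Htr2c had 344, 454, 464 and 299.7 CPM in Vip nuclei (log2 fold change -0.03) and fell in Pvalb nuclei, a difference of -2.27 ± 0.30 (SE, adjusted p = 0.00261, edgeR). This call held with DESeq2 and without each library. Htr4, a second serotonin receptor, had 59.2, 43.4, 13.4 and 11.9 CPM in Pvalb nuclei and 101, 157, 137 and 179.8 CPM in Vip nuclei (difference -2.38 ± 0.37). Creb5, a CRE-binding transcription factor, had 61.6, 76.4, 26.2 and 25.8 CPM in Pvalb nuclei and 38.8, 21.4, 75.8 and 81.5 CPM in Vip nuclei (-2.72 ± 0.39). The genes Itga8 and Sparcl1 made up the 5 largest differences of this sign and did not pass in Pvalb nuclei alone (-0.81 and -0.53), with fitted log2 fold changes of 1.95 and 1.08 in Vip nuclei that did not pass either. Of the comparison within Vip nuclei alone, 1 of 7016 genes passed, 1700016P03Rik, against 536 at an unadjusted p under 0.05. Within Sst nuclei alone, 64 of 6933 genes passed, 48 higher and 16 lower under the label Sel1L Syn-Cre, against 867. The Vip pseudobulks held 603704, 440899, 487961 and 420993 UMIs, far fewer than the Pvalb nuclei of the same library.

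**Figure D5:**
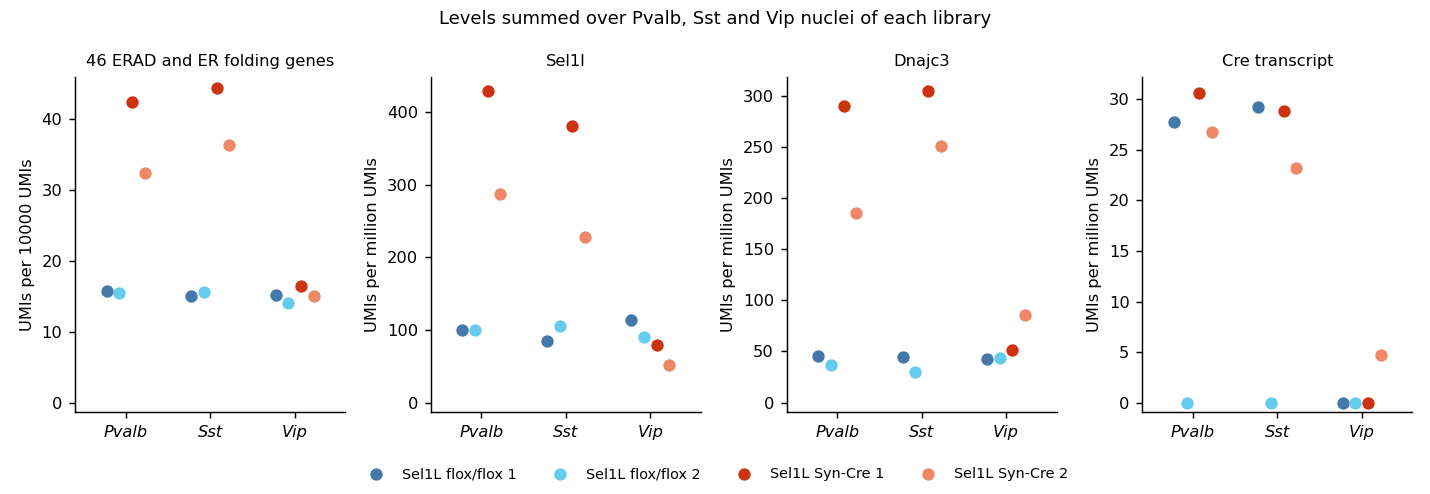
Levels over all Pvalb, Sst and Vip nuclei of each library, from left to right the 46 ERAD and ER folding genes (UMIs per 10000), Sel1l, Dnajc3 and the Cre transcript (unscaled CPM), with 1 point per library. In Pvalb and Sst nuclei both libraries labelled Sel1L Syn-Cre stood apart in the first 3 panels, and in the last panel Sel1L flox/flox replicate 1 stood with them.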

How the data were processed

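Nuclei had been sorted and sequenced with 10x 3′ v3 chemistry. The deposited values are UMI counts per gene and nucleus, made by the authors with Cell Ranger 6.1.0 on GRCm38 per the submitters' notes. Whether the counting used introns or strand is not given in the sources used here. Nuclei with more than 600 genes and under 5% mitochondrial UMIs were kept. The members and gene lists were chosen with earlier results of these data known. UMIs were summed per library and tested with edgeR 4.0.16 (R 4.3.3, TMM, quasi-likelihood test, Benjamini-Hochberg adjustment, threshold 0.05), fitting the 4 libraries of Pvalb nuclei. Genes of the membership rule were left out of the adjustment. Differences between interneuron types were interaction terms with library as a block. Named genes were the 10 largest rises and the 10 largest falls among those that passed, had at least 50 UMIs and whose labels did not overlap, the 10 most abundant that passed and changed by at least 0.58 (log2), up to 4 genes per list with the smallest p among those that passed, the 2 with the most UMIs among those that did not, and the 5 largest differences of each sign against another type. Other list members are named as examples. DESeq2 1.42.0, other scalings, filters, membership limits, a replicate block and each library left out were tried as alternatives. On simulated counts, 113 of 196 genes with a log2 change of 1 and 187 of 196 with a change of 2 were recovered, with 8 and 18 other genes called. The changed genes were drawn from those with at least 50 UMIs, and all genes shared 1 dispersion, 0.0154. Each library was 1 mouse, so p-values rest on 2 mice per label. Scrublet was run for doublets and removed none from the main values. Some genes that the naming rule picked are not reported here.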

Additional observations from a re-analysis of the deposited data

Results flagged for a closer look

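The library labelled Sel1L flox/flox replicate 1 held 82 Cre UMIs in its Pvalb nuclei, while replicate 2 of the same label held 0. The label does not lead one to look for this transcript. Between Pvalb and Vip nuclei, 23 genes had label differences that differed by the interaction test. Among the largest in the direction of a larger log2 fold change in Pvalb nuclei were Pdia5 (4.24), Stk32a (3.43), Aldh1l2 (3.24) and Sema3a (3.21). The 5 largest in the other direction were Creb5 (-2.72), Itga8 (-2.70), Htr4 (-2.38), Htr2c (-2.27) and Sparcl1 (-1.60).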

How the results depend on the processing

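All 394 genes that passed kept their direction under every alternative in which they could be fitted, except 1 of 376 when at least 4 of the 6 genes were required. The number that passed was 196 with DESeq2 (102 higher, 94 lower), 706 with no filter on low counts (380 and 326), 141 with at least 4 of the 6 genes (80 and 61) and 260 without the nuclei rich in Adarb2 (112 lower), the last chosen after seeing the data. With the replicate number as a block it was 681 (391 and 290). The residuals of same-numbered libraries correlated at 0.184 over the 2 pairs, and the numbers share only a number and the sex of the mice. Leaving out 1 library, where a lone library is assumed to vary like the others, gave 304 to 619 (161 to 386 higher, 143 to 253 lower). Against Sst nuclei the count was 2 after thinning and 0 to 64 without 1 library. Against Vip nuclei it was 3 with DESeq2, 60 after thinning and 42 to 138 without 1 library. The labels' difference in nuclei with a raised ER score was 64.2 percentage points at 3000 UMIs, 68.8 at the 99th percentile and 69.0 to 89.9 without 1 library. Of 1507 values for 90 named genes, 1376 stayed on their side of the threshold, 105 lost the call, 26 gained one and 0 changed sign with a call under either setting. Genes without a call did change sign, such as Nr4a1 (-0.15 to 1.46) and Asns (-0.07 to 0.66). With 2 mice per label, small changes in genes with few UMIs were not detectable.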

Other observations

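A few further genes, which belong to no list and were picked after their values were seen, passed in Pvalb nuclei and stand for no group. Magt1, of the oligosaccharyltransferase, rose by 2.51 on the log2 scale, Nucb2, a calcium-binding protein of the Golgi and ER, by 2.39, and Hs6st3, a heparan sulfate sulfotransferase, had a log2 fold change of -1.30.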
